A study of Mus musculus with 10 samples.

Results

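Mt1 and Mt2 encode the metallothioneins of this account, 2 of the 28808 gene rows listed across the count tables. Their rows were followed in every library, by day and by cell class. They were chosen by their measured levels, which varied between days and classes, so those levels are given as a description, with no test. Only a split of proximal cells by the gene Havcr1, made within each library, carries a p-value for them. The material was kidney cortex from mice labelled as 4 weeks old, dissociated to single cells and processed by Drop-seq. This method catches the RNA of single cells on barcoded beads in droplets and counts each captured molecule once, as a unique molecular identifier (UMI). There was 1 library of normal kidney, the control, and 1 library each of days 1, 2 and 4 after injury. Days 7, 11 and 14 after injury had 2 libraries each. The labels give no kind of injury, sex, strain or animal, so whether the 2 libraries of a day came from different animals is not known, and the spread between them may be technical.

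Metallothioneins are small, cysteine-rich proteins that bind zinc and copper and can scavenge reactive oxygen species. Zinc binding to the metal-responsive transcription factor Mtf1 switches on Mt1 and Mt2 through short promoter motifs called metal response elements, and glucocorticoids, inflammatory cytokines and oxidative stress can raise them too. In the kidney they are best known for binding cadmium and for protecting tubule cells from toxic and ischaemic damage.

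In the mouse genome (build GRCm38, GENCODE M21) the genes are neighbours on chromosome 8 and are read in the same direction. Mt2 lies at chr8:94172664-94173568 and Mt1 at chr8:94179082-94180327, both on the plus strand, with 5513 bases between them. Drop-seq counts the 3' ends of transcripts, which for these genes lie in the last exon. An antisense gene, Gm45774 at chr8:94170748-94173412 on the minus strand, overlaps the start and most of Mt2 but not its 3' end. Its own 3' end lies outside Mt2. Whether counting used strand is not given in the sources used here. How the authors treated reads that fit several related metallothionein genes is not given in the sources used here.

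The stretches before their RefSeq start sites (build GRCm38.p6, plus strand, 250 bases each) are shown because both genes are textbook targets of metal response elements and the levels below follow them together. Capitals mark matches, on either strand, to the metal response element core (TGCACNC or TGCGCNC), to a glucocorticoid response element (GNACA and TGTNC parted by any 3 bases, in Mt1) and to the antioxidant response core (TGACNNNGC, in Mt2). The Mt1 stretch is chr8:94178839-94179088 and the Mt2 stretch is chr8:94172368-94172617.
Mt1: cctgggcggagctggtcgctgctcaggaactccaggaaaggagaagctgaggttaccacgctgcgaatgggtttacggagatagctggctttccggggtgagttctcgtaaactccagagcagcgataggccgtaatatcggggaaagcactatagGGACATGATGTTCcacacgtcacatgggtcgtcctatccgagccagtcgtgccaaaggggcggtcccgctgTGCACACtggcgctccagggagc
Mt2: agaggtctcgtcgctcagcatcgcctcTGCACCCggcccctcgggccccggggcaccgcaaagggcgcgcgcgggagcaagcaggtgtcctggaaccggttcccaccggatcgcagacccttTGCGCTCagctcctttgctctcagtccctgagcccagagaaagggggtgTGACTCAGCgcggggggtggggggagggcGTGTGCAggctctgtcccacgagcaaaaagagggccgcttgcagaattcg
Counted over windows that go on to 50 bases past the start, Mt1 held 3 metal response element cores, of which 1 lies in the stretch shown, and Mt2 held 4, of which 3 lie in the stretch shown. Among 32851 RefSeq windows of 300 bases, 25.7% held at least 1 such core, 1.97% at least 3 and 0.518% at least 4. A glucocorticoid response element match was present in 0.475% of all windows and an antioxidant core in 12.4%. These are matches of letters only. GENCODE also lists Mt1 transcripts that start at 94179211 and 94179241 and an Mt2 transcript that starts at 94172860, all downstream of the windows searched.

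The tables held 64803 barcodes, of which 50378 were used as cells, between 3398 and 6633 per library. The median UMIs per cell ranged from 1253 to 2662. Any pair of libraries shared at most 11 barcodes. Cells were put into classes by the raw UMIs of marker genes, with no clustering. The thick ascending limb is the segment that reabsorbs salt without water. Its gate used Slc12a1, its salt transporter, and Umod, which encodes uromodulin, among its markers. Slc12a1 stood at 5581 UMIs per 1000000 UMIs (written CPM below) in gated cells and 50.5 CPM in the rest. Umod stood at 8141 and 172.9 CPM. These contrasts follow from the gate and are not a check of it. The mitochondrial share of UMIs was 23.7% in the control, 4.12% and 5.22% on day 7 and 18.1% and 20.1% on day 14 over all cells. It moved with the day, so levels were also computed per 1000000 UMIs of nuclear genes (nuclear CPM). Levels below are in CPM unless nuclear CPM is named.

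The thick ascending limb held the highest Mt1 level in CPM of all classes with at least 20 cells in 10 of 10 libraries. In nuclear CPM it did so in every library except day 4, where the distal convoluted tubule stood higher. Its Mt1 level was 1814 CPM in the control, from 10683 UMIs in 706 cells (exact Poisson 95% interval 1780 to 1849, counting error only). It was 5987 CPM on day 1, 2529 CPM on day 2 and 3079 CPM on day 4. The replicated days gave 1676 and 2774 CPM on day 7, 3177 and 3370 CPM on day 11, and 2641 and 2519 CPM on day 14. Day 1 stood highest, and all libraries except the first of day 7 lay above the control. The ratio to the control ranged from 0.924 to 3.30.

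Mt2 in the same cells followed a different course. It was 489.5 CPM in the control, 3025 CPM on day 1, 1741 CPM on day 2, 1589 CPM on day 4, 1101 and 1678 CPM on day 7, 683 and 1062 CPM on day 11, and 506 and 557 CPM on day 14. Every library of days 1 to 7 lay above every library of the control, day 11 and day 14 on this scale. How many of all genes part these days in the same way was not counted. In nuclear CPM the first day 7 library, at 1148, lay below the second of day 11, at 1241, and the other libraries of days 1 to 7 stood higher than both. The day 14 libraries stood 1.09-fold over the control on average, on a scale where day 1 was 6.18-fold over it.

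In nuclear CPM, Mt1 in the thick ascending limb was 2495 in the control, and days 1, 2 and 4 gave 6971, 2691 and 3301. The day 7 libraries were at 1749 and 2928, the day 11 libraries at 3844 and 3938, and the day 14 libraries at 3504 and 3476. The mean of day 7 was thus 1.23-fold the control in CPM and 0.937-fold in nuclear CPM, and the control lay between the day 7 libraries on both scales. No direction for Mt1 between the control and day 7 is drawn from these values. The Mt2 mean of day 7 was above the control on both scales, by 2.84-fold and 2.17-fold. The Mt1 mean of day 11 was above day 7 by 1.47-fold and 1.66-fold. The plot of levels by library draws both scales together.

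**Figure D1:**
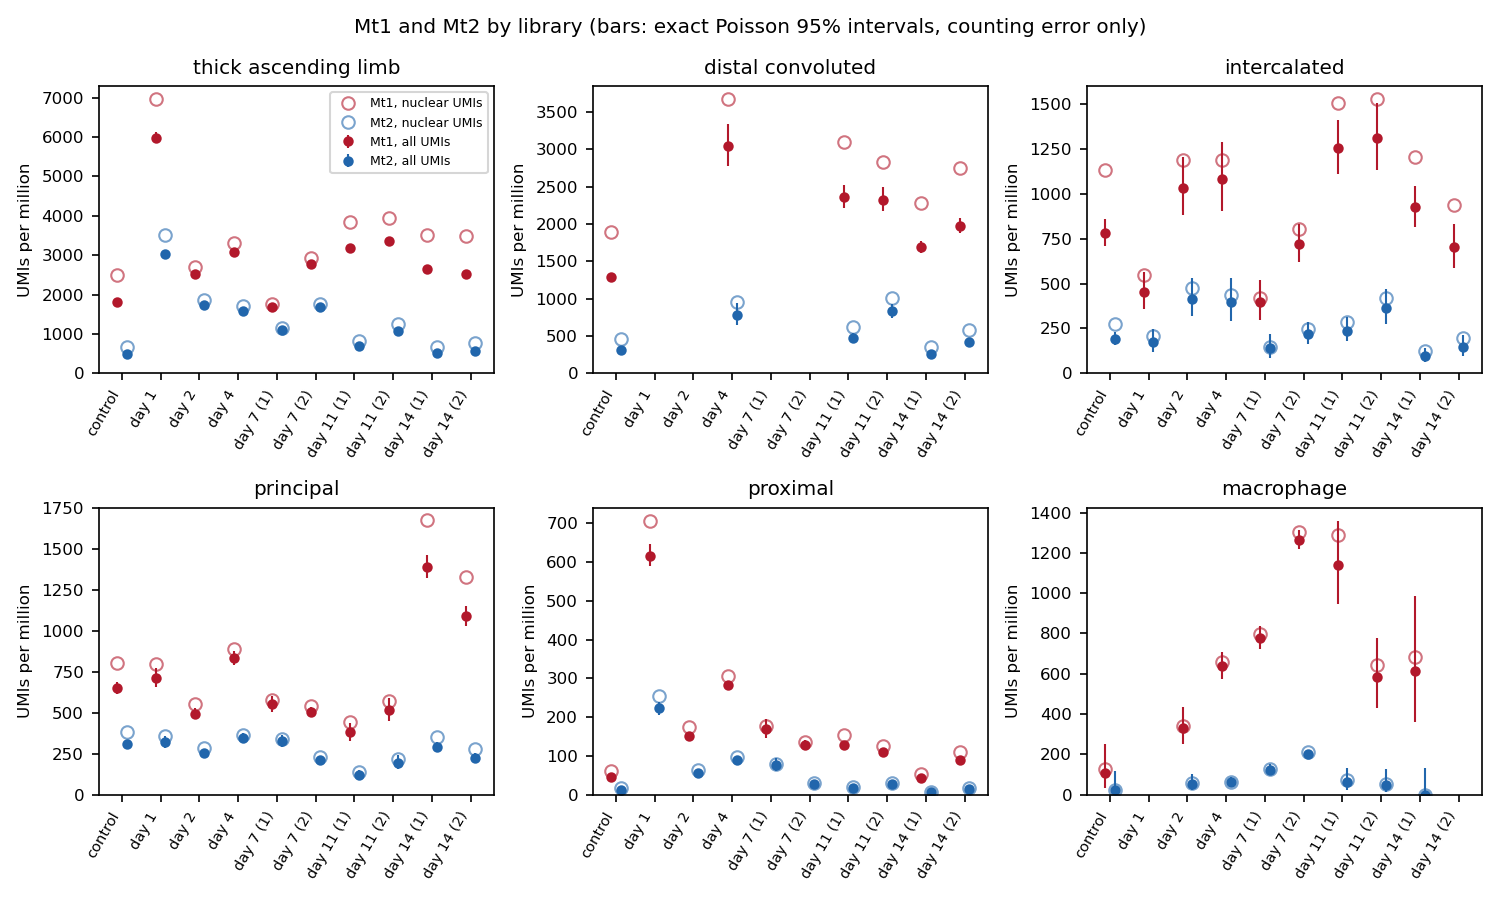
Mt1 (red) and Mt2 (blue) levels in 6 cell classes, 1 point per library with at least 20 cells of the class. The y axis gives CPM (filled points, with exact Poisson 95% intervals for counting error only) and nuclear CPM (open points), and the x axis the libraries, where (1) and (2) are the libraries of a day. Thick ascending limb Mt1 was 5987 CPM on day 1 and between 1676 and 3370 CPM in the other libraries.

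Most thick ascending limb cells held an Mt1 UMI, but the level was uneven between cells. After each cell was thinned to 500 UMIs, between 49.7% and 84.3% of thick ascending limb cells kept an Mt1 UMI, with the median library at 63.9%. In endothelial cells, a class used here as the background, the thinned share was 2.14% to 26.4%, with a median of 5.44%. Unthinned, the shares were 77.7% to 97.4% and 8.25% to 56.2%, at median depths of 1865 to 4119 and 896 to 1525 UMIs per cell. The 10% of thick ascending limb cells with the most metallothionein UMIs held 47.4% to 68.3% of all such UMIs in their class, and single cells reached up to 680 Mt1 UMIs. Mt1 and Mt2 were also correlated across thick ascending limb cells within a library, on log2 counts scaled to the UMIs of each cell. The correlation was between 0.23 and 0.55 over the 10 libraries. Those cells share a library and differ in depth, so these values are a description.

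The distal convoluted tubule, the segment that follows, had the CPM level just under it in all 6 libraries with at least 20 such cells. Mt1 there was 1290 CPM in the control, 3045 CPM on day 4, 2363 and 2328 CPM on day 11, and 1691 and 1977 CPM on day 14. On day 4 the thick ascending limb was 1.01-fold the distal level in CPM and the counting intervals overlapped. In nuclear CPM the order on day 4 turned, with 3676 in distal convoluted cells and 3301 in the thick ascending limb, so no order between them is drawn for that day. In the other 5 libraries the thick ascending limb was 1.27-fold to 1.56-fold higher in CPM, and it was higher in nuclear CPM too. Mt2 in distal convoluted cells was 313.7 CPM in the control, 787 CPM on day 4, 469 and 834 CPM on day 11, and 260.3 and 421 CPM on day 14.

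Intercalated cells, the acid- and base-secreting cells of the collecting duct, came next in the control at 781 CPM of Mt1. They were at 453 CPM on day 1, 1034 CPM on day 2 and 1084 CPM on day 4. They were at 395 and 720.3 CPM on day 7, 1253 and 1309 CPM on day 11, and 925 and 703 CPM on day 14. The day 11 libraries lay above both day 7 and day 14, on both scales. The day 1 value, alone among the intercalated values, was below the endothelial level of its library in CPM, at 0.908-fold. In nuclear CPM it was just above it, at 548 against 540.5.

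Principal cells, which reabsorb sodium and water in the collecting duct, differed from the other tubule classes late in the course. Their Mt1 level was 649.5 CPM in the control, 713 CPM on day 1, 495 CPM on day 2, 835 CPM on day 4, 552 and 508 CPM on day 7, and 382 and 517 CPM on day 11. On day 14 it was 1391 and 1088 CPM, above every other library. The mean rose 2.76-fold from day 11 to day 14, while the thick ascending limb, distal convoluted, intercalated and proximal levels stood lower on day 14 in both libraries, by 0.788-fold, 0.782-fold, 0.635-fold and 0.552-fold. Those directions held on the nuclear scale, and the difference between the classes was not tested. In the principal cells that held no Slc12a1 or Umod UMI, Mt1 was 1295 and 1084 CPM on day 14 and 404 and 568 CPM on day 11.

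Proximal cells, the most numerous class with 27187 cells and the segment that reabsorbs most of the filtrate, held little metallothionein. Their Mt1 level was 46.9 CPM in the control, 617 CPM on day 1, 153 CPM on day 2, 284 CPM on day 4, 170 and 128 CPM on day 7, 129 and 111 CPM on day 11, and 43.8 and 89.1 CPM on day 14. The thick ascending limb stood 9.70-fold to 60.2-fold over them. Mt2 in proximal cells ran from 6.42 CPM in the first day 14 library to 222.9 CPM on day 1. All libraries except the first of day 14 lay above the control for Mt1.

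These proximal values sat close to the endothelial ones. Endothelial Mt1 was 77.6 CPM in the control, 499.5 CPM on day 1, 109 CPM on day 2, 207 CPM on day 4, 262.9 and 96.5 CPM on day 7, 91.3 and 106 CPM on day 11, and 88.3 and 96.6 CPM on day 14. In 4 of 10 libraries, the control among them, the proximal level was at or below the endothelial level, and in the other 6 it was at most 1.42-fold higher. Podocytes were at or below it in 6 of 7 libraries. Day 1 was the highest library in endothelial cells, podocytes, proximal cells and the thick ascending limb alike. The part of free RNA in the day 1 levels was not tested. Above the endothelial level of the same library, Mt1 in the thick ascending limb was 6.38-fold to 34.8-fold higher, and 11.99-fold higher on day 1.

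**Figure D2:**
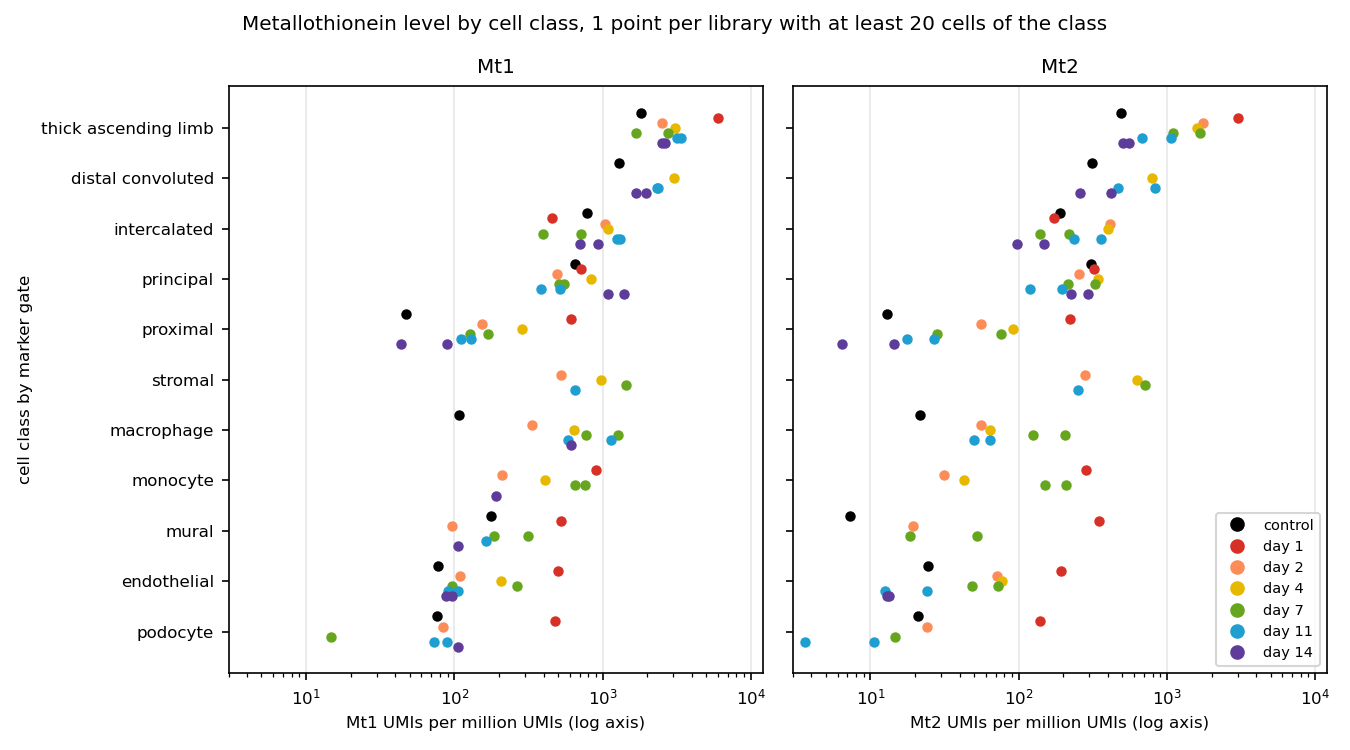
Mt1 (left) and Mt2 (right) levels by cell class, 1 point per library with at least 20 cells of the class, coloured by day. The x axes are logarithmic, in CPM, and values listed at 0 are not drawn. The thick ascending limb lies at 1676 CPM of Mt1 or above in all 10 libraries, and proximal cells at 617 CPM or below.

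Within the proximal class, the convoluted part held more Mt1 than the straight part, which lies in the outer medulla and medullary rays, in all 7 libraries with at least 20 cells of each. Convoluted cells were at 72.1 CPM and straight cells at 27.2 CPM in the control, and at 274.8 and 95.9 CPM on day 4. On the second day 7 library they were at 130.4 and 40.5 CPM. The day 11 libraries gave 164.5 and 127.0 CPM in convoluted cells and 62.7 and 53.5 CPM in straight cells. The day 14 libraries gave 48.1 and 93.2 CPM against 30.3 and 37.1 CPM. Straight cells were below the endothelial level of the same library in each of these libraries. Convoluted cells were below it in the control and both day 14 libraries and above it in the others. The part of free RNA in this difference was not tested.

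Macrophages, which were rare in the control, carried Mt1 with little Mt2. Their Mt1 level was 108 CPM in 33 control cells, 332 CPM on day 2, 638 CPM on day 4, 777 and 1265 CPM on day 7, 1139 and 584 CPM on day 11 and 616 CPM in the first day 14 library. It was above the endothelial level in all 8 libraries with at least 20 macrophages, by 1.39-fold to 13.1-fold. In the second day 7 library, 1 cell held 292 Mt1 UMIs, and the level without it was 1148 CPM. Macrophage Mt1 stood at 33.3 to 1435 UMIs per 100 UMIs of Slc12a1 and Umod, against 11.03 to 85.5 in the thick ascending limb itself. The ratio was above that of the thick ascending limb of the same library in endothelial cells too, at 35.0 to 223, and in proximal cells, at 34.7 to 488. Standing above it is thus not particular to macrophages. Within libraries, the macrophage ratio was above both of these classes wherever there were at least 20 macrophages, except in the control. On day 4 it was 757, against 400 in proximal and 152 in endothelial cells. In the control it was 33.3, against 34.7 and 35.0. A ratio above these 2 classes is not particular to macrophages either. On day 4 the ratio was 930 in principal and 329 in intercalated cells. In the first day 11 library it was 444 in principal cells, 1245 in intercalated cells and 833 in macrophages. The macrophages held only 7 UMIs of Slc12a1 and Umod in the second day 11 library and 3 in the first of day 14. Stromal cells, the fibroblast-like class, were at 527 CPM on day 2, 978 CPM on day 4, 1437 CPM in the second day 7 library and 648 CPM in the first day 11 library, from 29 to 56 cells each.

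The thick ascending limb made up 3.70% to 12.1% of cells and held 24.97% to 64.1% of all metallothionein UMIs in a library. Its share was 62.9% in the control, 46.9% on day 1, 40.4% on day 2, 35.6% on day 4, and 24.97% and 38.8% on day 7. It was 64.1% and 60.6% on day 11, and the day 14 libraries gave 44.5% and 47.1%. Macrophages held 11.01% and 16.9% of these UMIs on day 7 and at most 1.71% in every other library. Their share of the UMIs of all genes was 13.3% and 14.6% on day 7 and at most 2.73% in every other library. The metallothionein share was thus below it in the first day 7 library and above it in the second. Proximal cells held 4.31% of the metallothionein UMIs in the control and 19.8% on day 4. Cells that met no gate held 6.96% to 45.2%. They made up 44.9% of cells on day 1, 22.6% on day 2, 23.7% on day 4, and 44.9% and 31.1% on day 7. In the control, day 11 and day 14 libraries they made up 4.72% to 7.29%. The class shares of days 1 to 7 thus leave out many more cells than those of the other libraries. Their Mt1 level was 767 to 2233 CPM and they carried 359 to 2346 CPM of Slc12a1 and Umod.

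The Mt2 share of the metallothionein UMIs, a ratio inside each cell class that does not depend on total UMIs, separated the days. In the thick ascending limb it was 21.3% in the control (exact Clopper-Pearson 95% interval 20.6% to 21.9%). It was 33.6% on day 1, 40.8% on day 2, 34.0% on day 4, and 39.6% and 37.7% on day 7. It was 17.7% and 24.0% on day 11, and 16.1% and 18.1% on day 14. The 5 libraries of days 1 to 7 held 33.6% to 40.8% and the 5 other libraries 16.1% to 24.0%, with no overlap. This split into days was made after the shares were seen, and such shares were not computed for other pairs of genes.

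The same days stood apart in intercalated cells, at 23.3% to 28.7% in 4 libraries with at least 100 metallothionein UMIs against 9.54% to 21.7% in 5. They stood apart too in the unnamed cells, at 27.1% to 32.5% against 17.7% to 25.8%. In distal convoluted cells, where only day 4 of those days had enough cells, the share was 20.5% on day 4 and 19.6% in the control. It was 16.6% and 26.4% there on day 11 and 13.3% and 17.6% on day 14, so day 4 did not stand apart. The days overlapped in principal cells, at 29.3% to 37.3% against 17.3% to 32.2%, where the control itself was at 32.2%. They also overlapped in proximal cells, at 18.1% to 31.0% against 11.99% to 21.7%. In macrophages the share was 9.07% on day 4, 13.9% and 13.9% on day 7 and 5.30% in the first day 11 library, below the thick ascending limb of the same library in each case. UMI counts of different genes can be captured with different efficiency, so the share is compared between libraries and classes and not read as a ratio of transcripts.

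**Figure D3:**
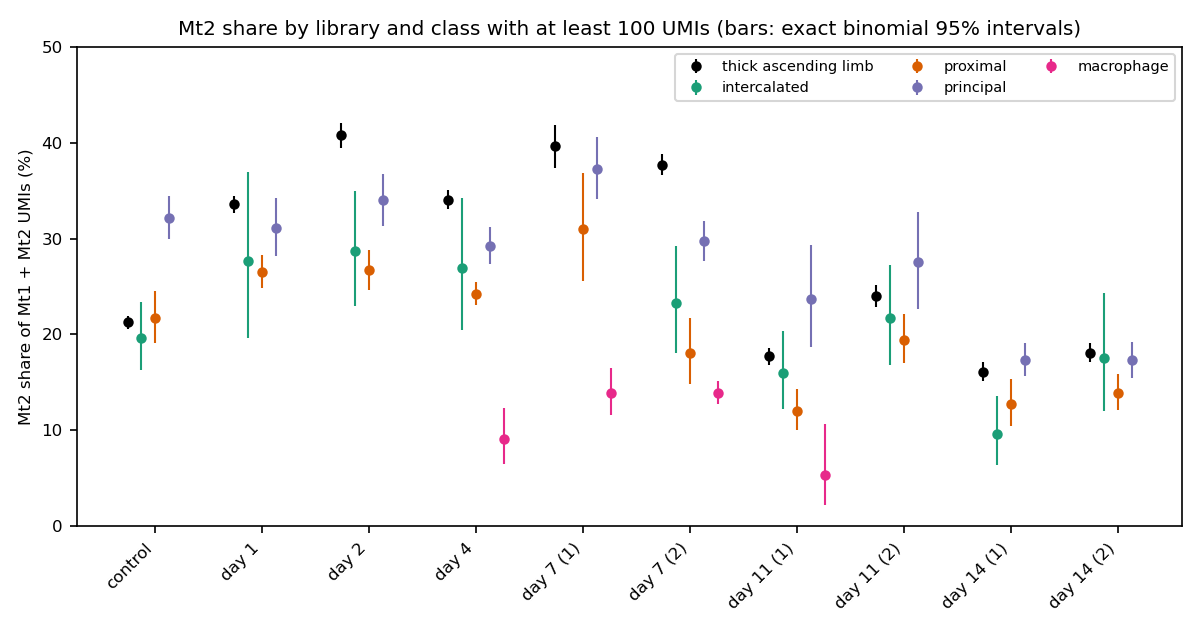
Mt2 UMIs as a percentage of Mt1 plus Mt2 UMIs in 5 cell classes by library, for class and library pairs with at least 100 such UMIs. Bars are exact binomial 95% intervals for counting error only. The thick ascending limb (black) lies between 33.6% and 40.8% on days 1 to 7 and between 16.1% and 24.0% in the control, day 11 and day 14 libraries.

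The other members of the family were scarce. Mt3, known from neurons, had 95 UMIs in all control cells and 4 to 31 in every injured library, and its level lay between 0.38 and 3.39 CPM. Mt4, known from stratified epithelium, had 1 UMI in the control, 1 on day 2 and none in the other libraries.

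Summed over tubule cells and scaled by edgeR (TMM), Mt1 was 794.9 CPM in the control, 451.5 and 606 CPM on day 7, 985 and 795.0 CPM on day 11, and 585 and 632 CPM on day 14. Mt2 was 222.8 CPM in the control, 258 and 308 CPM on day 7, 203 and 248.7 CPM on day 11, and 106 and 132 CPM on day 14. The fitted log2 difference of day 7 from the control was -0.48 (SE 0.23) for Mt1 and 0.45 (SE 0.24) for Mt2. For Mt1 this direction is that of the TMM scale: in CPM without TMM the tubule sums were 606 in the control and 674 and 815 on day 7. Without TMM the day 11 sums of Mt1, 849 and 682, also overlapped those of day 7. From day 7 to day 11 the fitted log2 differences were 0.82 (SE 0.19) for Mt1 and -0.26 (SE 0.19) for Mt2, and from day 11 to day 14 they were -0.61 (SE 0.19) and -0.99 (SE 0.19). Day 14 against the control gave -0.28 (SE 0.23) and -0.79 (SE 0.23).

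A tubule sum mixes segments, and the thick ascending limb made up 22.9% of its UMIs in the control and 18.6% and 18.9% on day 7. It was 19.0% and 13.6% on day 11, and the day 14 libraries held 9.22% and 10.3%. Other segments moved more by day 7: the proximal share went from 60.2% in the control to 30.9% and 36.0%, and the principal share from 6.94% to 27.7% and 28.7%. Cells with Havcr1 in no other class made up none of the control's UMIs and 19.2% and 12.8% on day 7. In sums of thick ascending limb cells alone, day 14 against the control gave 0.48 for Mt1 and 0.09 for Mt2, the opposite sign of the tubule sums. In proximal cells alone, day 7 against the control gave 0.76 for Mt1, also the opposite sign. From day 11 to day 14, Mt1 kept its sign in both segments. From day 7 to day 11 the fitted Mt1 difference was above 0 in both segments, but in proximal cells only on the TMM scale: the mean CPM there went from 149 to 120.4 and the mean nuclear CPM from 158 to 140.7, with the libraries overlapping.

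The genes around the metallothioneins were read from lists, with the edgeR quasi-likelihood F test and Benjamini-Hochberg adjustment over all 15928 genes tested. On day 7 against the control 34.7% of all tubule genes were called, 16.7% higher and 18% lower. Of 20 zinc transporters and Mtf1 tested, 2 rose and 7 fell. Slc30a2, a zinc exporter into vesicles, fell by 2.28 (SE 0.30) on the log2 scale, and the importers Slc39a5, Slc39a8 and Slc39a14 fell too, Slc39a8 by 1.56 and Slc39a14 by 1.55. The median of the list was -0.37 and that of all genes 0.05. In thick ascending limb sums 2 of 18 rose and 1 fell, beside 20.5% of 11919 genes called, 9.57% higher and 11% lower, and there Slc39a8 rose by 1.94 (SE 0.46).

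Of 11 copper and iron genes, 3 rose and 2 fell in tubule sums, with a list median of -0.40. Cp, the copper-carrying ferroxidase ceruloplasmin, rose by 5.33 (SE 0.61), Slc31a2 rose by 2.28, Tfrc, the transferrin receptor, fell by 3.25 and Sod1, a copper-zinc superoxide dismutase, fell by 1.95. Of 10 glucocorticoid-response genes, 1 rose and 6 fell, with a median of -0.78. Fkbp5, a classical glucocorticoid target, fell by 1.76 (SE 0.30), Errfi1 by 1.67, Klf9 by 1.29 and Pdk4 by 1.11. In thick ascending limb sums 2 of these 10 fell, Klf9 by 0.76 and Pdk4 by 1.81, and none rose.

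Of 15 genes of the NRF2 and oxidative stress response, 1 rose and 7 fell, with a median of -0.53. Osgin1 fell by 2.40 (SE 0.29), Gsr by 1.49, Gclc by 1.41 and Nqo1 by 1.27; Gsr and Gclc serve glutathione recycling and synthesis. In thick ascending limb sums none of 14 was called. Of 9 hypoxia genes, 1 rose and 3 fell, with a median of -0.20. Egln3 rose by 1.72, and Vegfa fell by 2.16, Bnip3 by 1.17 and Adm by 1.12. Thick ascending limb sums had 3 of 8 hypoxia genes called higher and 2 lower, and 1 of 11 copper and iron genes higher and 2 lower.

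Acute-phase and interleukin 6 genes went the other way: 9 of 13 rose and none fell, with a median of 3.61. Lcn2, which encodes the injury marker lipocalin 2, rose by 8.01 (SE 0.40), and the fibrinogen genes Fgb, Fgg and Fga rose by 7.14, 7.03 and 2.81. In thick ascending limb sums 6 of 8 rose, among them Lcn2 by 7.91 (SE 0.36), Stat3 by 1.44 and its feedback inhibitor Socs3 by 2.56. Lcn2 stood at 5.67 CPM (TMM) in control thick ascending limb cells, 1983 CPM on day 1, 1197 CPM on day 2, 1654 CPM on day 4, 1123 and 1494 CPM on day 7, 90.7 and 75.2 CPM on day 11, and 19.1 and 23.8 CPM on day 14. Socs3 followed another course: it stood at 21.6 CPM in the control, between 94.8 and 143.5 CPM on days 1 to 7, 197.7 and 265.1 CPM on day 11, and 37.6 and 48.9 CPM on day 14.

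Of 13 heat shock and immediate early genes, 5 rose and 2 fell in tubule sums on day 7 against the control, with a median of 0.65. Hspb1, a small heat shock protein, rose by 4.54 (SE 0.36), Ier2 by 1.47 and Egr1 by 1.42, and Hsph1 fell by 2.50. In thick ascending limb sums 7 rose and 1 fell. From day 7 to day 11, 8 of 13 rose and 2 fell in these cells, with a list median of 0.76, beside 26.9% of all genes called, 15.3% higher and 11.6% lower. Mt1 there stood higher on day 11, while Mt2 stood lower in CPM and overlapped in nuclear CPM. From day 11 to day 14, 11 of 13 fell and none rose, with a list median of -1.46. In these cells Atf3 fell by 2.13 (SE 0.25), Hspb1 by 2.52 (SE 0.24) and Fos by 1.38 (SE 0.22). Of all genes 6.57% were called from day 11 to day 14 in these cells, 2.48% higher and 4.09% lower. In tubule sums over those days 9 of 13 fell and none rose, beside 11.5% of all genes called, 5.58% higher and 5.96% lower. Immediate early genes are also known to respond to tissue dissociation. The labels give no dissociation time, and its part was not tested.

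In sums of proximal cells alone, where 37.4% of 14801 genes were called on day 7 against the control, 18.3% higher and 19.1% lower, 4 of 19 zinc genes rose and 7 fell. Of the NRF2 genes there 2 of 15 rose and 6 fell, of the glucocorticoid genes none of 10 rose and 4 fell, of the acute-phase genes 9 of 13 rose and 1 fell, and of the heat shock and immediate early genes 8 of 13 rose and 4 fell.

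Transcripts abundant in proximal cells moved in the same comparisons. In tubule sums, which hold the proximal cells themselves, Kap fell by 4.75 and Gpx3 by 1.18 on day 7 against the control. In thick ascending limb sums Kap fell by 5.12 (SE 0.37) and Gpx3 by 2.39 (SE 0.49). Fxyd2, a sodium pump regulator on the same list, stood at 4407 CPM (TMM) in control thick ascending limb cells and 4324 CPM in the control tubule sum, so it does not mark other cells there. Of 5 erythroid genes in tubule sums, Hba-a1 rose by 5.29 (SE 1.84) and the other 4 were not called. Hba-a1 stood at 3.26 CPM in the control, 230.8 CPM in the first day 7 library and 3.26 CPM in the second, so 1 library held the rise. Thick ascending limb sums had 1 of 4 erythroid genes called higher. Mt3 fell by 4.18 (SE 0.67) in tubule sums. The proximal marker genes summed to 360 CPM in control thick ascending limb cells, 59.7 and 37.1 CPM on day 7, 679 and 1212 CPM on day 11, and 648 and 760.5 CPM on day 14.

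Marker genes of some other classes went the other way in thick ascending limb cells. The principal markers summed to 40.6 CPM in the control, 108 to 136 CPM on days 1 to 4, 312 and 233 CPM on day 7, 25.7 and 37.0 CPM on day 11, and 50.1 and 63.9 CPM on day 14. The monocyte markers summed to 32.6 CPM in the control, 117 to 324 CPM on days 1 to 7, 93.1 and 147 CPM on day 11, and 60.2 and 47.2 CPM on day 14. The macrophage markers were at 1.87 CPM in the control and highest on day 7, at 88.0 and 36.0 CPM. The intercalated markers were at 44.7 CPM in the control and 127 and 76.6 CPM on day 7. The principal and monocyte sums thus stood above the control in every library of days 1 to 7, the days with the higher Mt2 share. The monocyte sum also stood above the control in every library of days 11 and 14, and the principal sum in both of day 14. The principal sums did part the days, at 108 to 312 CPM on days 1 to 7 and 25.7 to 63.9 CPM in the other libraries. The monocyte sums overlapped, with 117 CPM on day 1 and 147 CPM in the second day 11 library. The markers of the other 8 classes summed to at most 82.9 CPM in any library. The part of all these transcripts in the levels of Mt1 and Mt2 was not tested.

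On day 11 against day 7, 43.2% of all tubule genes were called, 22.7% higher and 20.6% lower. Of the lists, 6 of 20 zinc genes rose and 4 fell, 6 of 11 copper and iron genes rose and 4 fell, and 7 of 10 glucocorticoid genes rose. Of 15 NRF2 genes 9 rose and 2 fell, of 9 hypoxia genes 5 rose and 2 fell, of 13 heat shock and immediate early genes 6 rose and 2 fell, and of 13 acute-phase genes 6 fell.

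On day 14 against the control 7.27% of all tubule genes were called, 4.23% higher and 3.04% lower. No zinc or hypoxia gene was called. Of the acute-phase genes 3 of 13 rose, of the glucocorticoid genes 2 of 10, of the NRF2 genes 1 of 15 and of the copper and iron genes 1 of 11. Of the heat shock and immediate early genes 4 of 13 fell, with a list median of -0.31. The thick ascending limb sums had 1.7% of all genes called, 0.881% higher and 0.822% lower. None of the zinc, copper and iron, glucocorticoid or NRF2 genes was called there. Of the acute-phase genes 1 of 8 rose, of the hypoxia genes 1 of 8 rose and 1 fell, and of the heat shock and immediate early genes 1 of 13 fell. Of 4 erythroid genes 3 were called higher in these cells, with a list median of 7.75. Hbb-bs, a haemoglobin gene, stood at 1.09 CPM (TMM) in the control and at 36.3 and 459 CPM on day 14, so the day 14 libraries lay far apart. The part of red cell RNA in the thick ascending limb levels of day 14 was not tested.

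Genes were ranked by Pearson's r of their log2 TMM level to the mean of the log2 levels of Mt1 and Mt2. Over the 10 tubule sums, among 6228 genes, the highest were Rpsa (Pearson's r 0.88), Nrp1 (0.85), Tuba1c (0.85), Tuba1b (0.84) and Pcna (0.82). Over the 10 thick ascending limb sums, among 6167 genes, they were Pde12 (0.93), Tubb4b (0.91), Ran (0.90), Polr3k (0.88) and Chmp2a (0.88). Each of these 10 genes except Polr3k had a higher r to Mt2 than to Mt1, as Nrp1 with 0.92 and 0.51. Polr3k had 0.73 to Mt2 and 0.76 to Mt1. Mt1 and Mt2 correlated with each other at 0.53 over the tubule sums and 0.42 over the thick ascending limb sums. Day 1 was the highest library for each of these 10 genes, as it was for Mt1 plus Mt2, and these correlations carry no test.

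Because metallothionein was uneven between thick ascending limb cells, the cells of each library were divided at the median of Mt1 plus Mt2 UMIs per UMI, and the other genes of the metallothionein-high and metallothionein-low cells were compared within libraries. This comparison was added after the data had been seen. The median cuts a continuous range: 14.1% to 27.9% of cells lay within 20% of it. The high cells held 2.39-fold to 3.96-fold the metallothionein level of the low cells. High cells were also deeper in all 10 libraries, by 1.15-fold to 1.92-fold in median UMIs, and had a lower median mitochondrial share in all 10.

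Of 9795 genes, 292 (2.98%) were called by the edgeR quasi-likelihood F test with the library as a block, 122 higher (1.25%) and 170 lower (1.74%) in the high cells. Of 13 heat shock and immediate early genes 7 rose and none fell. Atf3, a stress-induced transcription factor, was higher by 0.68 (SE 0.12) on the log2 scale, adjusted p = 4.35e-04 (edgeR). It was higher in 8 of 10 libraries. Fos was higher by 0.50 (SE 0.09), Btg2 by 0.46, Dnajb1 by 0.40, Ier2 by 0.37, Jun by 0.32 and Junb by 0.28. The other 6, Egr1 (0.28), Hspa1a (0.34), Hspa1b (-0.00048), Hspb1 (-0.0063), Hsph1 (-0.28) and Hsp90aa1 (-0.19), were not called. When cells were split by the presence of a metallothionein UMI after thinning to 500 UMIs, 5 of 13 were called higher, and with DESeq2 3 were. Atf3 was called under the thinned split, adjusted p = 0.00555 (edgeR), but not with DESeq2, adjusted p = 0.0558. Fewer of all genes were called under both settings, 83 with the thinned split.

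None of the 15 zinc genes, 9 glucocorticoid genes or 12 NRF2 genes tested was called between high and low cells. Their medians were 0.01, 0.01 and 0.07 and that of all genes was 0.01. Of the 8 hypoxia genes none was called. Of 5 acute-phase genes Socs3 was higher by 0.60 (SE 0.15), adjusted p = 0.0125 (edgeR), in 8 of 10 libraries. Of 11 copper and iron genes, Cp was lower by 2.41 (SE 0.22) and Sod1 by 0.26 (SE 0.07). Slc12a3, the salt transporter of the distal convoluted tubule, was lower by 1.76 (SE 0.22), in 9 of 10 libraries. Cldn16, a paracellular magnesium channel of the thick ascending limb, was higher by 0.36 (SE 0.08), while Slc12a1 (-0.09) and Umod (0.02) were not called.

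Some transcripts abundant in other cells were lower in the high cells. Kap was lower by 0.86 (SE 0.11) and Gpx3 by 0.74 (SE 0.08), each in 10 of 10 libraries, and all 4 haemoglobin genes tested were lower by 1.44 to 1.66. The marker genes of the cell classes were tested with Havcr1, Nos1 and Ptgs2 added. Of these 42 genes, 9 were called lower and 2 higher, with a median of -0.55. Havcr1, Nos1 and Ptgs2 were not called. Of the 9, 8 were proximal markers, among them Acsm2 (-0.90) and Slc34a1, a phosphate transporter (-0.68), and the other was Slc12a3. The 2 higher ones were Cldn16 and Atp6v0d2, a proton pump subunit used as an intercalated marker, at 0.53 (SE 0.14). Atp6v1g3, the other intercalated marker tested, was at -0.61 and not called, so these markers had no common direction. Under the thinned split none of the 4 haemoglobin genes was called, with a median of -0.06, and with DESeq2 none was called either, with a median of -1.25 against -1.55. Of the 4 transcripts on the proximal list, 3 were called lower, with a median of -0.68. Under the strict gate (at least 3 markers and a share of 0.8) 1 was, with a median of -0.29, and under the thinned split 2 were, with a median of -0.24. The part of depth and of these foreign transcripts in the other differences was not tested.

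**Figure D4:**
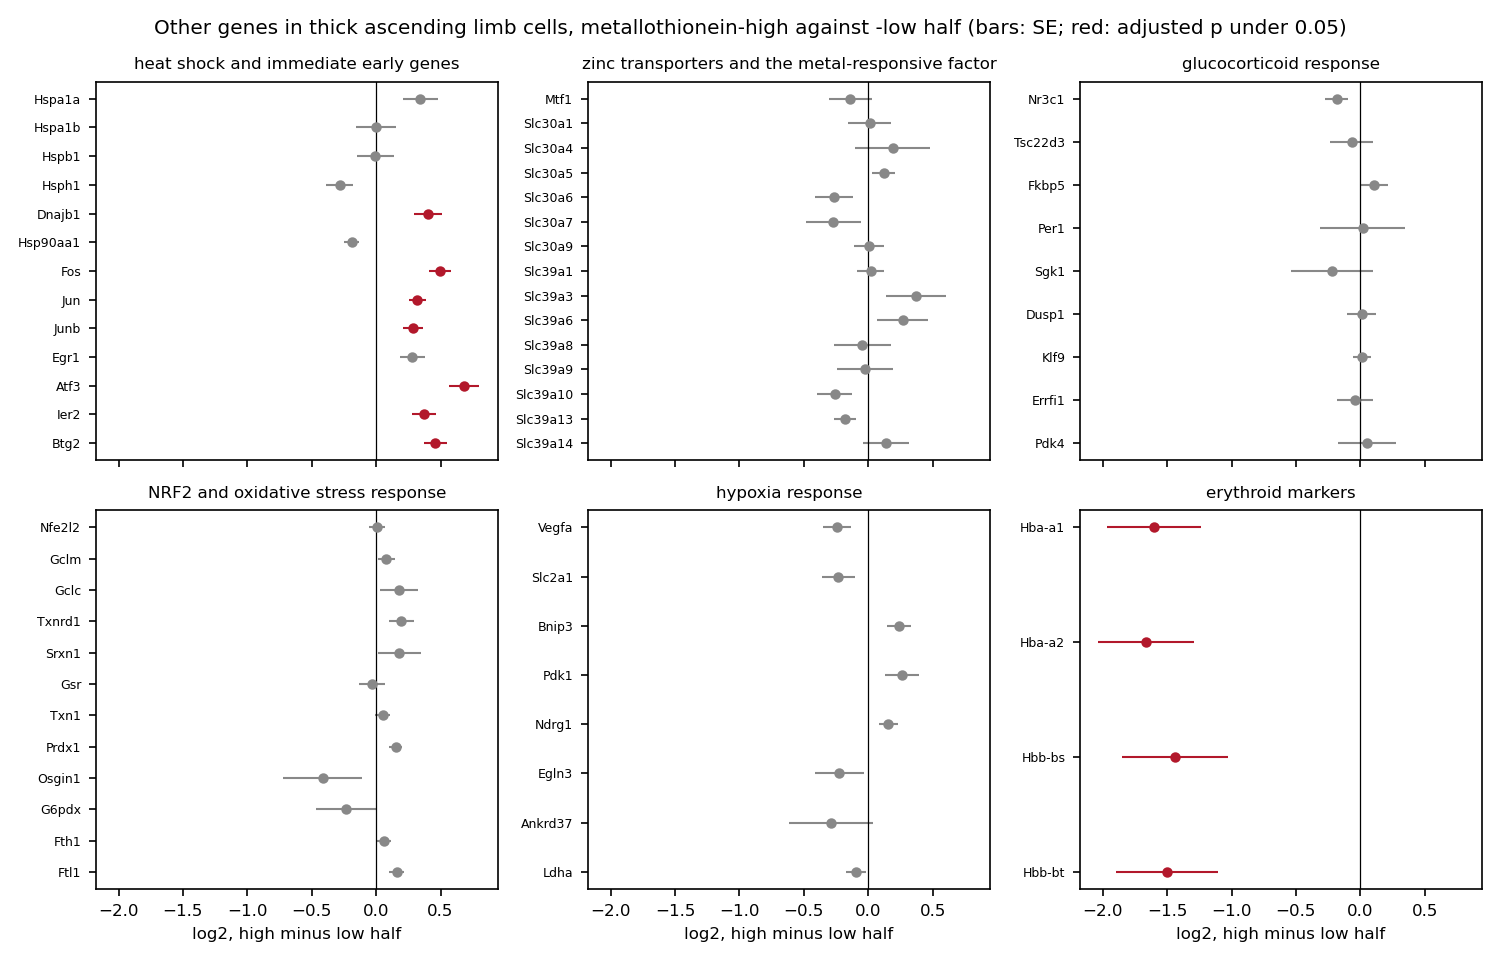
Log2 difference of other genes between metallothionein-high and metallothionein-low thick ascending limb cells, paired within 10 libraries, for 6 gene lists. Points are edgeR estimates, bars their SE, and red marks an adjusted p under 0.05. Of the heat shock and immediate early genes 7 of 13 are called higher, and of the zinc, glucocorticoid, NRF2 and hypoxia lists none is called.

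Havcr1 encodes KIM-1, the marker that injured proximal cells put on their surface. Proximal cells with a Havcr1 UMI were compared with those without one in each library. Mt1 plus Mt2 stood at 22.4 and 61.3 CPM in the control for cells with and without Havcr1, at 866 and 720 CPM on day 1, 274 and 183 CPM on day 2, and 464 and 179.7 CPM on day 4. On day 7 the values were 238 and 271 CPM in the first library and 178 and 87.7 CPM in the second. On day 11 they were 115 and 148 CPM and then 218 and 138 CPM, and on day 14 they were 16.7 and 51.1 CPM and then 63.8 and 104.3 CPM. Cells with Havcr1 were higher in 5 of 10 libraries, and the mean log2 difference was -0.04 (SD 1.01, n = 10; two-sided exact sign-flip permutation p = 0.895). The control, day 11 and day 14 libraries held 27 to 51 such cells each, with as few as 6 metallothionein UMIs.

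Cells with Havcr1 were deeper, with 8136 against 2557 median UMIs in the control and 2742 against 1730 on day 4. After thinning every cell to 500 UMIs, the 5 libraries of days 1 to 7 kept at least 20 cells with Havcr1. They were higher in all 5, with a mean log2 difference of 0.54 (SD 0.24, n = 5, two-sided exact permutation p = 0.0625). That is the smallest p-value that 5 pairs allow. The test therefore cannot decide whether these cells differ, and no conclusion is drawn from it. In the same 5 libraries without thinning, a comparison chosen after seeing the data, 4 were higher. The mean there was 0.61 (SD 0.61, n = 5, two-sided exact permutation p = 0.125). The limit of 5 pairs holds for this test too, so it is a description only. The mean thus moved with the libraries kept. Over all tubule cells, where cells without Havcr1 include the thick ascending limb, the log2 difference was -1.71 (SD 1.27, n = 10). This mixes classes of different level and is a description only. The part of the class mix was not tested.

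**Figure D5:**
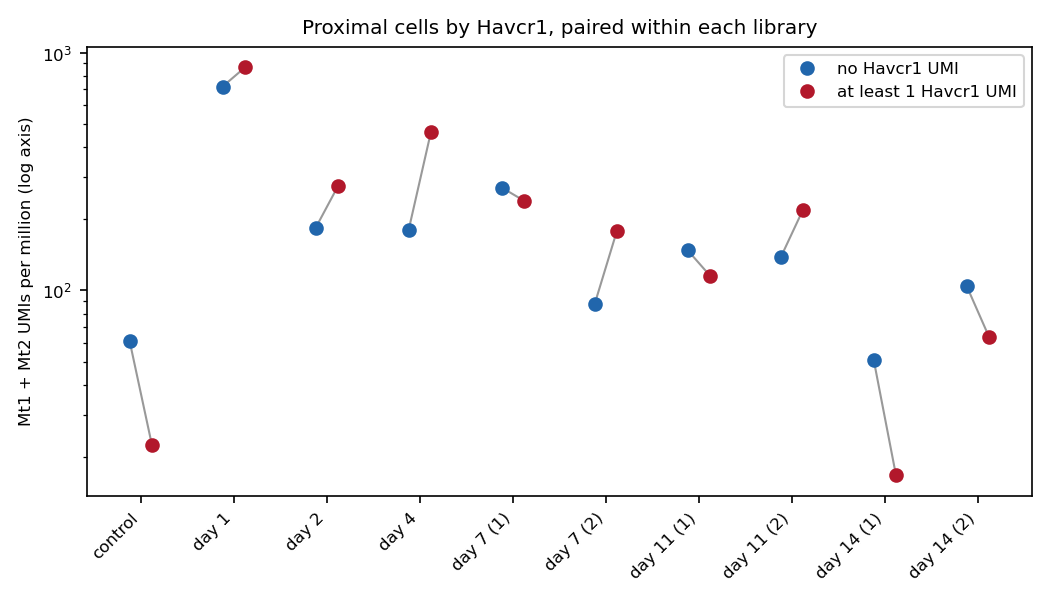
Mt1 plus Mt2 in CPM (logarithmic y axis) in proximal cells with at least 1 Havcr1 UMI (red) and with none (blue), joined within each library along the x axis. Red lies above blue in 5 of 10 libraries, by most on day 4, at 464 against 179.7 CPM.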

How the data were processed

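Kidney cortex cells of 10 libraries were measured by Drop-seq. The authors deposited, for each library, a table of whole-number counts with gene symbols in rows and barcodes in columns, taken here as UMI counts from the values. Bowtie2 2.2.7 and the build mm10 are named in the submitters' processing notes; annotation and strand are not given in the sources used here. Per the authors' deposited count tables, 8 libraries hold no barcode under 500 genes, while both day 11 libraries go down to 300.

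A barcode was dropped if it had under 500 genes or under 500 UMIs, or over 50% mitochondrial UMIs. Scrublet (scanpy 1.11.5) marked at most 0.111% of a library as doublets at its own threshold, so the highest 5% of scores per library were removed. A cell joined a class if it held UMIs of at least 2 of that class's markers and they made up at least 0.6 of its UMIs over the markers of all classes; Adgre1 and Chil3 are not listed in the tables. Tubule cells are the 5 tubule classes and cells with Havcr1 that fit no other class. Levels are summed UMIs scaled to 1000000 UMIs. A mean over the libraries of a day has 2 values. Poisson and Clopper-Pearson intervals cover counting error only.

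Counts summed per library were compared with edgeR 4.0.16 (R 4.3.3; low-count filter, TMM, quasi-likelihood F test, Benjamini-Hochberg at 0.05), all libraries in 1 model. The SE is the log2 change over the square root of F. The control, a single library, borrows its spread from the replicated days, and p-values measure only spread between libraries. DESeq2 1.42.0 was an alternative. On simulated counts for day 7 against the control, 95 of 100 genes changed by 2 on the log2 scale and 13 of 100 changed by 1 were recovered, with 5 false calls among 15928 genes.

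Named genes are Mt1 and Mt2, and up to 4 called genes per list (mean log2 CPM at least 3). Those had the largest change on day 7 against the control. The 5 genes most like the mean of log2 Mt1 and log2 Mt2 are named too. Others were named after their values were seen. 1 gene of the proximal transcript list is not reported here. The genes, lists and classes were chosen with earlier results of these data known.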

Additional observations from a re-analysis of the deposited data

Results flagged for a closer look

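Cell classes moved in opposite directions between the same days, with both libraries of a day on the same side; the difference between classes was not tested in any case below. From day 11 to day 14, Mt1 in principal cells rose 2.76-fold in the means, while it stood at 0.552-fold in proximal, 0.788-fold in thick ascending limb, 0.782-fold in distal convoluted and 0.635-fold in intercalated cells. Mt2 over the same days stood at 1.65-fold in principal cells, and at 0.467-fold in proximal, 0.609-fold in thick ascending limb, 0.523-fold in distal convoluted and 0.411-fold in intercalated cells. These directions were the same in nuclear CPM. From day 7 to day 11, Mt2 in intercalated cells stood at 1.67-fold. Over those days it stood at 0.426-fold in proximal, 0.628-fold in thick ascending limb, 0.580-fold in principal, 0.304-fold in endothelial and 0.345-fold in macrophage cells. On the nuclear scale the proximal and thick ascending limb libraries of days 7 and 11 overlapped. The intercalated values rest on 58 to 98 cells per library on these days. Their Mt2 was 139.6 and 218.9 CPM on day 7 and 237.8 and 361.8 CPM on day 11, from 18, 55, 52 and 55 UMIs. The second library of day 7 (exact Poisson 95% interval 164.9 to 284.9 CPM) and the first of day 11 (177.6 to 311.8 CPM) thus differed by less than counting error, so no direction is drawn for Mt2 in these cells.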

How the results depend on the processing

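Of the alternatives tried for the fitted and tested results, 160 were counted as the same and 37 as moved. Another 11 reversed the sign and 1 brought the result past the threshold. A log2 change of Mt1 or Mt2 was the same if it kept its sign and moved by less than the replicate SD. A number of called genes was the same within a fixed fold range. The Havcr1 difference was the same if its sign and its side of the threshold held, whatever its size. Sums of thick ascending limb cells alone, chosen after seeing the data, turned the day 14 against control difference to 0.48 for Mt1 and 0.086 for Mt2. They gave Mt2 0.86 for day 7 against control, Mt1 1.11 for day 11 against 7, and -0.28 and -0.65 for Mt1 and Mt2 for day 14 against 11. They gave 2448, 3212, 783 and 203 called genes for day 7 against control, 11 against 7, 14 against 11 and 14 against control, where tubule sums gave 5527, 6886, 1838 and 1158; fewer genes and UMIs enter these sums. Proximal cells alone turned Mt1 to 0.76 on day 7 and 0.35 on day 14 against control. They gave Mt2 0.99 and -0.49 for those comparisons, Mt1 0.44 for day 11 against 7, and Mt1 -0.86 for day 14 against 11. All kept cells gave Mt1 -0.25, 0.51 and -0.36 in the first, the second and the third comparison, Mt2 -0.73 in the third, and 3096 called genes there. A mitochondrial limit of 25% gave Mt1 -0.21 on day 7 against control, and -0.88 and -1.24 for Mt1 and Mt2 on day 14 against 11. A strict gate (at least 3 markers, a share of 0.8) gave Mt2 -0.47 for day 11 against 7, and Mt1 -0.51 and Mt2 -0.999 for day 14 against control. Without the low-count filter, 2797 genes were called on day 14 against 11 and 2244 on day 14 against control.

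Leaving out 1 library gave 4775 to 5436, 4311 to 6632, 327 to 2673 and 184 to 2277 called genes in these 4 comparisons, and kept the sign of each Mt1 and Mt2 difference: Mt1 -0.66 to -0.33, 0.66 to 0.99, -0.74 to -0.46 and -0.34 to -0.22, and Mt2 0.37 to 0.53, -0.42 to -0.11, -1.16 to -0.82 and -0.97 to -0.64. The lone library of a day is then assumed to vary like the others. Day 14 against control gave 2277 and 2236 without the first and the second day 7 library, and 376 and 184 without the first and the second of day 14. Day 14 against 11 gave 799 and 383 without those of day 11, and 395 and 327 without those of day 14. Day 11 against 7 gave 4311 without the second of day 11. With a replicate block for days 7, 11 and 14, 6979 genes were called on day 11 against 7 and 2002 on day 14 against 11; the control has no pair. The numbers did not pair the libraries: correlations of same-numbered libraries' deviations were 0.12, 0.0049 and -0.07 over 15928 genes.

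Between high and low thick ascending limb cells the called genes numbered 83 with the thinned split, 142 with the strict gate and 108 with DESeq2, against 292. The Havcr1 difference was 0.47 with at least 2 Havcr1 UMIs, 0.54 after thinning, 0.61 in the same libraries without thinning (chosen after seeing the data), 0.12 with the strict gate and -1.71 over all tubule cells. It was -0.20 to 0.13 leaving out 1 library, and turned sign without the control (0.12) and without the first (0.13) or second (0.03) day 14 library. The cause of these changes was not tested, and neither was the part of the smaller sums named. Depth limits the scarce classes: macrophages of the control had 5 Mt1 UMIs.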
